A study of Capsella grandiflora and Capsella rubella with 18 samples.

Results

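Flower buds of Capsella rubella were compared with leaves of Capsella grandiflora in 14 of the 18 RNA-seq libraries of a study of mating system evolution in crucifers. The 14 were taken by their labels: 4 libraries from mixed-stage floral buds of C. rubella, called Cr_bud 1 to 4, and 10 from maturing leaves of C. grandiflora, called Cg_leaf 1 to 10. The other 4 libraries, from mixed-stage floral buds of C. grandiflora (Cg_bud 1 to 4), served only to ask whether a bud-leaf difference seen with rubella buds also held within grandiflora. A gene was tested where it reached 1 FPKM (sequenced fragments relative to the transcript's length and the library's mapped total) in at least 4 of the 14 libraries, which left 17150 of 19350 rows and removed 2200.

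All plants grew in a greenhouse under standardized conditions. The C. rubella buds came from plants of Kalavrita, San Luca in Italy, Megalopoli and Samos, the last of a line inbred in the greenhouse. The leaves came from C. grandiflora grown from wild-collected Greek seed, with 3 libraries from Mikro Papingo, except Cg_leaf 6, an F1 of a cross between Corfu plants. The grandiflora buds were likewise from wild-collected seed, except Cg_bud 4, an F1 of Corfu plants. Cg_bud 2 and Cg_leaf 7 both came from Pili, so 2 of the grandiflora buds share a place of origin with a leaf library, and the titles of 3 of the 4 grandiflora buds begin with the same number or letter as a leaf title. No C. rubella leaf was used here, so in this comparison species and tissue change together and cannot be told apart. The labels do not say whether a library holds more than 1 plant. The p-values measure the spread between libraries.

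C. rubella is a self-compatible species that arose from an outcrossing ancestor resembling C. grandiflora, which is self-incompatible. Its flowers are known for small petals and reduced pollen number, traits often called the selfing syndrome. Maturing leaves are photosynthetic and devote much of their messenger RNA to a small set of chloroplast-targeted proteins, whereas mixed-stage buds combine meristematic tissue, floral organs and developing pollen. The deposited table gives gene IDs and coordinates without names, so the labelled tissues could not be checked against named marker genes, and genes are described by ID, position and level.

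Expression was spread over many more genes in rubella buds than in leaf. The top 10 genes accounted for 4.18% ± 0.524 of all FPKM in rubella buds (SD, n = 4, range 3.39 to 4.51) and 19.6% ± 5.52 in leaf (SD, n = 10, range 12.5 to 27.6). A share of 50% of the FPKM sum was reached with 937 to 1016 genes in the rubella buds and with 49 to 296 genes in leaf, so the groups did not overlap. At least 1 FPKM was reached by 16581 to 16684 rows in rubella buds and by 13897 to 14709 rows in leaf. Each of these differences, and that of the FPKM sum (576725 to 625873 in rubella buds, 1307609 to 1858148 in leaf), had an exact permutation p of 0.002 (two-sided, 4 against 10), the smallest that these numbers allow, also after adjustment over the 5 values compared. Grandiflora buds lay near the rubella buds, with 3.97% to 6.48% in the top 10 genes and 799 to 923 genes for 50% of the sum.

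**Figure D1:**
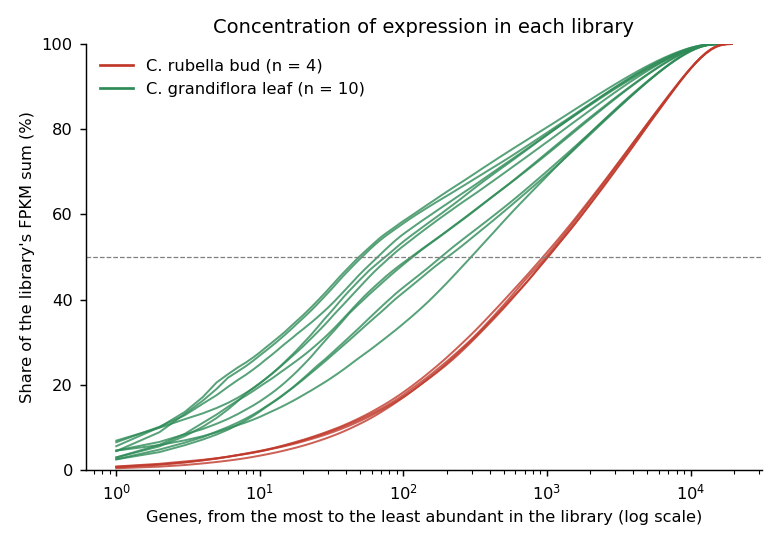
Cumulative share of a library's FPKM sum (vertical axis, percent) against the number of genes counted from the most abundant (horizontal axis, log scale), 1 line per library, 4 C. rubella bud and 10 C. grandiflora leaf libraries. The dashed line marks 50% of the sum, which bud libraries reach with 937 to 1016 genes and leaf libraries with 49 to 296.

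The bud and leaf columns of the table also differ in form. Bud values are rounded to 2 decimals and leaf values are not, and in Cr_bud 1 the value 0.5 stands in 1137 rows while 0 stands in 4, against 1321 to 1520 rows at 0 in the other rubella buds. Leaf columns hold 0 in 2390 to 2972 rows. Tissue and this difference in form coincide in every bud-leaf value below, and with rubella buds species does too, so they cannot be told apart there. Ranks within a library, which no order-preserving scaling can change, are therefore given beside the log2 values. Across the tested genes, the rank correlation (Spearman's rho) between a rubella bud and a leaf library was 0.471 to 0.597 (40 pairs, median 0.530), against 0.955 to 0.965 among rubella buds and 0.863 to 0.962 among leaves. Cg_leaf 4 stood apart from the other leaves, with a mean rho of 0.900 to them where the next lowest had 0.923. It was the leaf library nearest to the rubella buds, with a mean rho of 0.578 against 0.483 to 0.557 for the others. Without it, 6725 genes were called higher and 5630 lower in rubella buds, against 6410 and 5551 with it.

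The main comparison asked which genes differ between rubella buds and leaf. Most tested genes did, in near-equal numbers of each direction. On the log2(FPKM + 1) scale, which understates the change of low genes, 6410 genes (37.4% of those tested) were higher and 5551 (32.4%) lower in rubella buds, with a Benjamini-Hochberg adjusted p from limma below 0.05. The median difference among the calls was 1.60 for the higher and -1.54 for the lower genes. Of the calls, 4764 (27.8% of the tested genes) were higher and 4074 (23.8%) lower by 2-fold or more. A difference of 4-fold or more was seen in 2343 and 1901 genes, and one of 16-fold or more in 587 and 352. The 4 bud libraries lay wholly above or wholly below the 10 leaf libraries in 8632 genes (50.3%). Over all tested genes the median difference was 0.12, and scaling every library to the upper quartile of its values above 0 moved it to 0.57. That quartile depends on how 0 is listed, which differs between the columns. With that scaling 8815 genes were called higher and 4078 lower, so 68.4% of calls were higher in place of 53.6%. Other settings turned the balance the other way: quantile normalization gave 6119 higher and 6604 lower (48.1% higher), and a filter of 5 FPKM 4767 and 5316 (47.3%). Leaving out 1 rubella bud gave 46.1% to 46.8% higher, but the filter of 4 libraries then removes genes expressed in the remaining rubella buds alone. With the filter asked in 3 libraries instead, 53.3% to 54.1% of calls were higher.

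**Figure D2:**
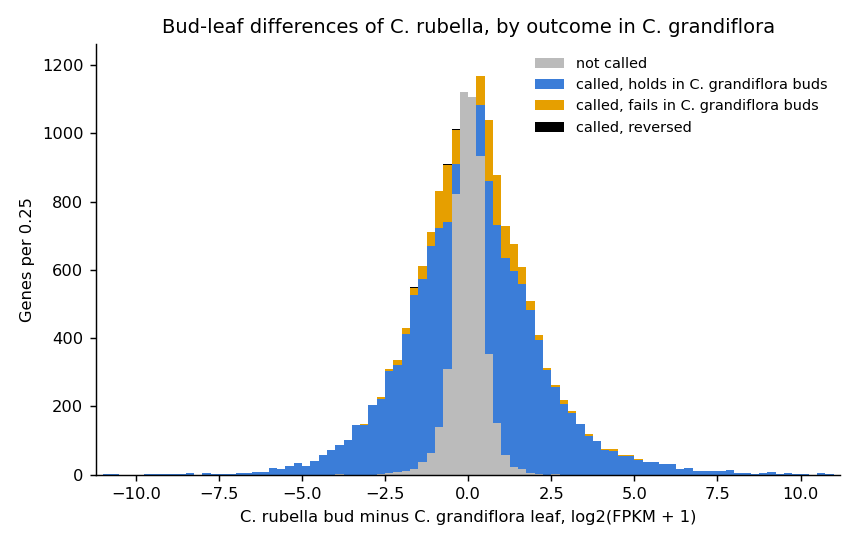
Histogram of the difference between C. rubella buds and C. grandiflora leaf (horizontal axis, log2(FPKM + 1), bins of 0.25) over the tested genes, stacked by outcome. Grey genes were not called, blue genes (10709) were also called in the same direction with C. grandiflora buds, orange genes (1240) were not, and black genes (12) were called in the opposite direction. Orange gathers near the centre and thins out toward both ends.

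Levels show how the differences were made up. Of 2299 tested genes with a leaf mean below 1 FPKM, 2202 were called higher in rubella buds. Among them, 1021 stood at a mean of 5 to 50 FPKM and 213 at 50 FPKM or more in rubella buds, and every gene of both classes was called. At the other end, 52 genes had a leaf mean of 50 FPKM or more and a rubella bud mean below 1, and 51 of them were called lower. The largest class, 6822 genes at 5 to 50 FPKM in both, gave 1690 calls higher and 1903 lower. Since a class is defined by the levels that are compared, these counts describe the calls and do not test them. The filter adds to this, since a gene low in leaf could pass it through the 4 rubella buds alone. Of the 2299 genes, only 47 had a rubella bud mean below 1 FPKM, so a call higher in buds was largely built in.

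The most abundant genes of the tissues were partly the same. Of the 100 genes with the highest mean in rubella buds, 21 were also among the top 100 of leaf and 74 among its top 1000, while 20 had a leaf mean below 1 FPKM. Of these 100 genes, 67 were called higher in buds and 19 lower, where 37.4% and 32.4% of all tested genes were. Of the 100 most abundant leaf genes, which all had a mean of at least 1799 FPKM, 96 were called lower in rubella buds and none higher, beside the same background. Each set of 100 was chosen for a high level on one side of the difference tested, so these counts are a description only. Those leaf genes were not silent in buds: their median mean level was 226 FPKM in rubella buds and 155 FPKM in grandiflora buds, and none had a mean below 1 FPKM in either.

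Some genes were listed at 0 throughout 1 tissue. In 209 genes all 4 rubella buds reached 5 FPKM and all 10 leaves were listed at 0. Their mean level in rubella buds ran from 5.57 to 2283 FPKM (median 30.5), and 78 of them had a mean of at least 50 FPKM. In grandiflora buds the median mean level of the same genes was 41.3 FPKM. All 4 grandiflora buds also reached 5 FPKM in 156 of the 209, and 1 gene stood at 0.5 FPKM or below in all 4. The species differed in 93 of these genes, with 77 lower and 16 higher in rubella buds, beside 1791 (10.4%) lower and 1995 (11.6%) higher among all tested genes (limma, adjusted p below 0.05, 8 bud libraries). Conversely, 33 genes were at 5 FPKM or above in all 10 leaves and stood at 0.5 FPKM or below in all 4 rubella buds. Their leaf means ran from 9.91 to 308 FPKM, and all 33 had a mean below 1 FPKM in grandiflora buds as well. A value listed at 0 carries no depth here, and the leaf columns list 0 more often, so the counts of 209 and 33 are not a like comparison.

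Ranks gave a similar number of calls and a more even balance. By percentile rank within each library, 6171 genes (36%) were placed higher and 6315 (36.8%) lower in rubella buds (limma, adjusted p below 0.05). Of the 11961 genes called on the log2 scale, 10152 were called by rank in the same direction, 1709 were not called by rank, and 100 were called in the opposite direction. All 100 were higher on the log2 scale, by 0.94 at most, and lower by rank. Among the 8838 genes with at least 2-fold differences, 8007 (90.6%) were called by rank in the same direction and none in the opposite one. Ranks alone called a further 2234 genes.

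The 4 genes named for size show how far apart the tissues lay. Carubv10002873m (scaffold 6, 2381124 to 2382729, CR v1 JGI build) stood at 2355, 1278, 4208 and 1291 FPKM in Cr_bud 1 to 4 and was listed at 0 in all 10 leaves. In Cg_bud 1 to 4 it stood at 4273, 4663, 3991 and 3787 FPKM. Every bud library of either species was above every leaf library, and rubella buds were more spread out than grandiflora buds. The difference was 10.97 (SE 0.245) for rubella and 12.02 (SE 0.114) for grandiflora on the log2 scale.

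Carubv10003652m lies a few kilobases away (scaffold 6, 2386831 to 2387229). It stood at 1680, 1208, 3206 and 1664 FPKM in Cr_bud 1 to 4, and was listed at 0 in 9 leaves and at 1.18 FPKM in Cg_leaf 9. Grandiflora buds held 2817 to 3325 FPKM. Again no bud library overlapped with leaf, and the difference was 10.71 (SE 0.253) for rubella and 11.45 (SE 0.198) for grandiflora. Between the species, neither gene passed the test (limma adjusted p = 0.0787 and 0.0958). These genes sit in a stretch of strongly bud-biased genes, singled out after their values were seen: of 22 tested genes that lie within 50 kb of the first one, 17 were called higher in rubella buds and 2 lower, where 37.4% and 32.4% of all tested genes were. The 22 include both named genes, on the first of which the window is centred. Of those 22, 9 had a rubella bud mean of at least 100 FPKM, and 7 of these 9 stayed below 1 FPKM in every leaf library.

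Among genes higher in leaf, Carubv10021234m (scaffold 2, 12113473 to 12114011) stood at 19.9, 2.18, 2.06 and 4.66 FPKM in Cr_bud 1 to 4. In leaf it ranged from 1726 to 121431 FPKM with a median of 7792. The tissues did not overlap, but the leaf libraries themselves spanned a wide range, highest in Cg_leaf 7, 9 and 8. The difference was -10.83 (SE 1.09) for rubella and -10.70 (SE 1.05) for grandiflora, and -11.44 for rubella without Cr_bud 1. Carubv10021237m, its near neighbour (scaffold 2, 12108502 to 12109118), stood at 2.56, 1.39, 1.54 and 1.97 FPKM in Cr_bud 1 to 4 and at 2.96, 10.9, 9.29 and 6.99 FPKM in Cg_bud 1 to 4. Leaf ranged from 1562 to 36191 FPKM with a median of 3118. The same 3 leaf libraries, Cg_leaf 7, 9 and 8, held its highest values. The difference was -10.57 (SE 0.677) for rubella and -9.09 (SE 0.7) for grandiflora, and the species test was passed, with rubella buds lower by -1.48 (SE 0.327, limma adjusted p = 0.0156).

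The next question was which of the rubella bud-leaf differences held in grandiflora. In grandiflora buds against the same 10 leaves, 6316 of the 17150 genes (36.8%) were higher and 5552 (32.4%) lower at an adjusted p below 0.05 (limma). Both comparisons use the same leaf libraries and are therefore not independent. A rubella difference was counted as holding if the grandiflora difference was called with the same sign, as failing if it was not called, and as reversed if it was called with the opposite sign. By this count, 10709 of 11961 differences held (89.5%), 1240 failed (10.4%) and 12 were reversed. Of the genes higher in rubella buds, 5686 held and 720 failed, and of those lower, 5023 held and 520 failed. The genes that held had median differences of 1.70 with rubella and 1.71 with grandiflora buds where higher, and of -1.63 and -1.71 where lower. Ranks often put a failing gene in another class. Of the 1240 that failed on the log2 scale, 474 held by rank, 404 failed and 38 were reversed. For the remaining 324, rubella buds were not called apart from leaf by rank. Of the 10709 that held, 8859 also held by rank, 461 failed, 6 were reversed and 1383 were not called.

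The share that failed was highest among small differences. It dropped from 36.6% (86 of 235) among genes higher by less than 0.5 on the log2 scale to 23% (324 of 1411) at 0.5 to 1, 10.1% (245 of 2421) at 1 to 2, 2.96% (52 of 1756) at 2 to 4 and 2.21% (13 of 587) at 4 or more. Among genes lower in rubella buds it dropped from 52.9% (100 of 189) to 21.2% (273 of 1288), 5.57% (121 of 2173), 1.68% (26 of 1549) and 0% (0 of 352). Most failing genes leaned the same way in grandiflora: 653 of the 720 higher and 465 of the 520 lower genes had the same sign there, with median grandiflora differences of 0.38 and -0.33. A missed threshold is not a difference between species. The test of that difference, rubella against grandiflora buds, was passed in the matching direction by 505 of the 1240 failing genes (312 higher and 193 lower), and not passed by 735. Over all tested genes it called 1995 (11.6%) higher and 1791 (10.4%) lower in rubella buds. Failing genes were chosen as called with rubella and not with grandiflora buds, which favours the matching direction. In the other direction 0 were called. In a single fit of all 18 libraries, the test was passed by 87 higher and 56 lower failing genes. Leaving out 1 rubella bud gave 177 to 208 higher and 114 to 139 lower, or 197 to 235 and 113 to 144 with the filter asked in 3 libraries. The failing counts also depended on how many bud libraries entered. With 1 rubella bud left out in turn, 434 to 455 higher and 323 to 369 lower differences failed. The filter of 4 libraries then also removes genes expressed in the remaining rubella buds alone. With it asked in 3 libraries, 484 to 515 and 340 to 377 failed. With 1 grandiflora bud left out, 993 to 1039 higher and 700 to 737 lower differences failed.

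**Figure D3:**
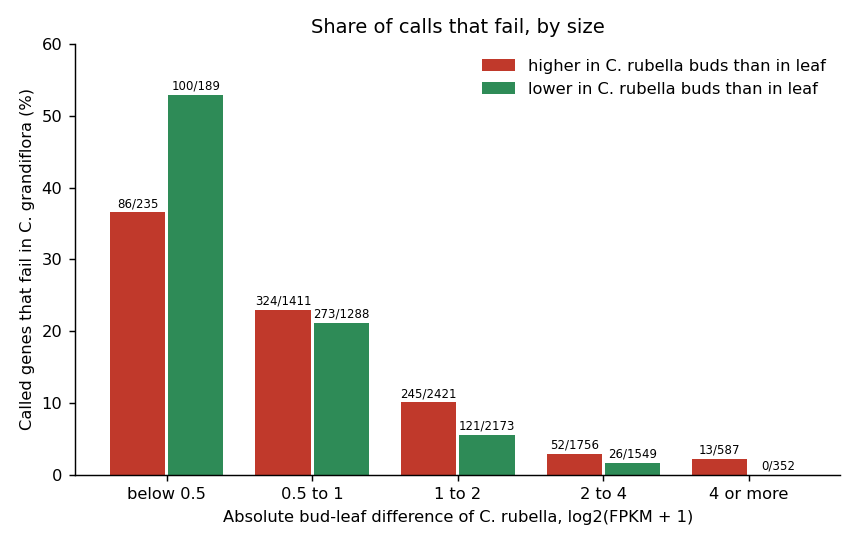
Share of called C. rubella bud-leaf differences that were not called with C. grandiflora buds (vertical axis, percent), by absolute size of the rubella difference (horizontal axis, log2(FPKM + 1)), for genes higher and lower in buds. Numbers over the bars give failing genes over called genes. The share drops from 36.6% and 52.9% in the smallest class to 2.21% and 0% in the largest.

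A smaller set combined size with the test between species. It asked for a called rubella difference of at least 1 on the log2 scale, a grandiflora difference under 0.5 and a called difference between the buds of the species in the matching direction. In all, 147 genes met this, 110 higher and 37 lower in rubella buds than in leaf. The higher genes had median differences of 1.53 with rubella and 0.17 with grandiflora buds. Of them, 40 had a mean below 1 FPKM in both leaf and grandiflora buds, and 30 differed by at least 4-fold between the species' buds. Those 40 passed the filter mainly through the 4 rubella buds, where they are high. Genes expressed in grandiflora buds alone did not pass the filter, and they can show no rubella difference from leaf, which the set asks for. The set can therefore hold no counterpart of that kind to the 40. The 37 lower genes had median differences of -1.29 and -0.15, and 11 had a rubella bud mean below 1 FPKM. Rubella and grandiflora bud libraries did not overlap in 139 of the 147, though the set was chosen on that difference. The share without overlap over all tested genes is not given here, so this count is a description only. By rank, 80 of the 147 also failed and 20 were reversed, while 17 held and 30 were not called. Membership depended on scaling: 69 of the 147 met the same limits after upper quartile scaling, 51 after quantile normalization and 22 after both (19 higher and 3 lower). All 22 failed or were reversed by rank too.

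**Figure D4:**
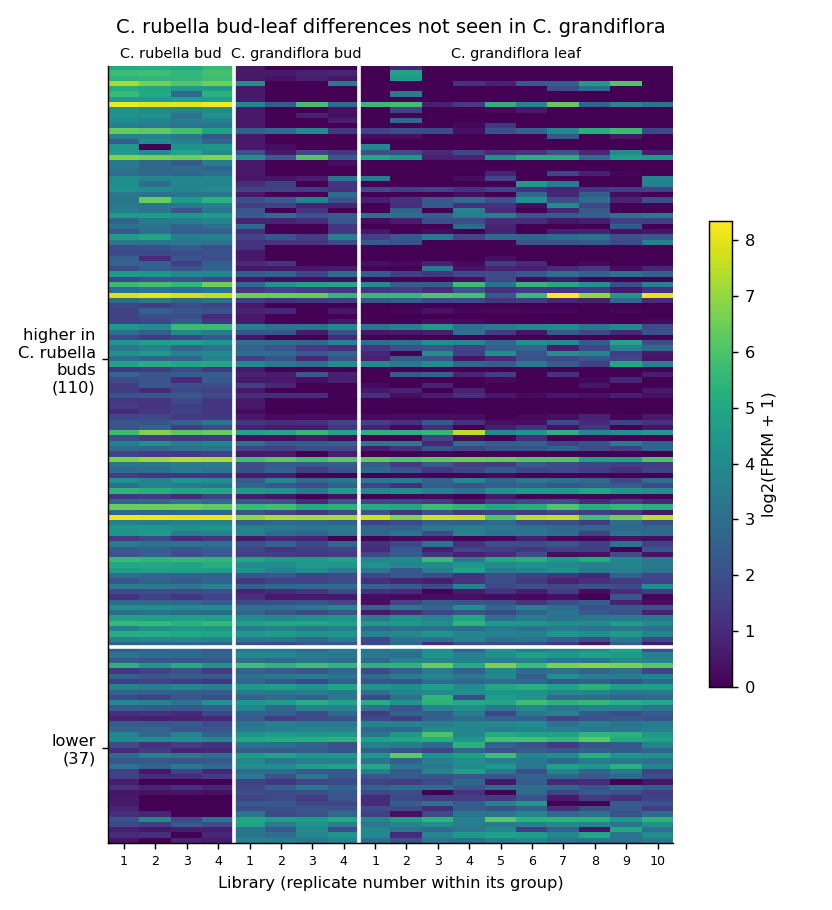
Level of the 147 genes (rows, log2(FPKM + 1) as colour) in all 18 libraries (columns, by group), ordered by the difference between C. rubella and C. grandiflora buds. The upper 110 rows are brighter in the 4 rubella buds and the lower 37 rows darker than in most grandiflora buds and leaves; a few rows are bright in single leaf libraries, such as Cg_leaf 2 at the top.

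The 2 largest of the higher ones open to naming were below 1 FPKM in all grandiflora buds. Carubv10016256m (scaffold 3, 390427 to 390995) stood at 33.05, 35.95, 33.2 and 49 FPKM in Cr_bud 1 to 4. In Cg_bud 1 it was given as 0.5 FPKM, the value that column holds in place of 0, and in Cg_bud 2 to 4 it was listed at 0. In leaf it was listed at 0 in 9 libraries and stood at 0.823 FPKM in Cg_leaf 2. All 4 rubella buds were above all 14 grandiflora libraries. The difference was 5.17 (SE 0.173) from leaf and 5.11 (SE 0.183, limma adjusted p = 3.52e-06) from grandiflora buds, while grandiflora buds differed from leaf by 0.06 (SE 0.164, limma adjusted p = 0.758).

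Carubv10018558m (scaffold 5, 10718226 to 10719359) stood at 51.9, 53.6, 45.2 and 57.5 FPKM in Cr_bud 1 to 4 and at 0.5, 0.51, 0.67 and 0.87 FPKM in Cg_bud 1 to 4. In leaf it was listed at 0 in 9 libraries and reached 27.2 FPKM in Cg_leaf 2. Rubella buds were above all grandiflora libraries, and 1 leaf library stood far above the other leaves. The difference was 5.24 (SE 0.705) from leaf and 5.02 (SE 0.114, limma adjusted p = 2.22e-07) from grandiflora buds. Its failure in grandiflora rested on Cg_leaf 2. Grandiflora buds differed from leaf by 0.22 (limma adjusted p = 0.788), and by 0.71 (limma adjusted p = 6.87e-06) without that library.

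Both preceding rows along the scaffold were also high in rubella buds and near 0 in grandiflora buds, and this run of 3 adjacent rows was singled out after its values were seen. The row at 10712852 to 10715975 stood at 48.4, 32.2, 6.46 and 41 FPKM in Cr_bud 1 to 4, and the row at 10716434 to 10718075 at 40.5, 44.15, 44 and 52.6 FPKM. In grandiflora buds they stayed at or below 0.5 and 0.63 FPKM. In leaf both were listed at 0 in 9 libraries and were present in Cg_leaf 2, at 9.72 and 22.1 FPKM, the former above Cr_bud 3. All 3 rows were thus present in every rubella bud and in a single grandiflora leaf library, the same one each time. Of the 147 genes, 15 lay next to another of the set among the tested rows, as 8 adjacent pairs, 7 of them with the same direction and none with overlapping spans among those 7. A pair on scaffold 6 (675418 to 678463 and 678838 to 680155) stood at 86.1 to 108 and 264 to 315 FPKM in rubella buds. In Cg_bud 1 to 4 its rows held 16.9, 4.2, 67.5 and 3.99 FPKM and 14.7, 4.38, 55 and 6.18 FPKM, so Cg_bud 3 was highest for both.

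Among the lower ones, Carubv10015810m (scaffold 3, 5385463 to 5386272) stood at 0.35, 0, 0.83 and 0.56 FPKM in Cr_bud 1 to 4. It stood at 11.7, 11.5, 9.11 and 12 FPKM in Cg_bud 1 to 4 and at 3.24 to 12.8 FPKM (median 8.04) in leaf. Rubella buds were below every grandiflora library of either tissue. The difference was -2.66 (SE 0.253) from leaf and -3.10 (SE 0.193, limma adjusted p = 0.000107) from grandiflora buds. Carubv10001944m (scaffold 6, 15125186 to 15126566) stood at 2.69, 1.82, 4.13 and 2.85 FPKM in Cr_bud 1 to 4, at 27.3, 9.48, 18.1 and 10.7 FPKM in Cg_bud 1 to 4 and at 8.05 to 17.5 FPKM (median 11.34) in leaf. No rubella bud reached the lowest grandiflora value. The difference was -1.74 (SE 0.219) from leaf and -2.08 (SE 0.325, limma adjusted p = 0.00475) from grandiflora buds. For both genes grandiflora buds were not called apart from leaf (limma adjusted p = 0.11 and 0.25) as deposited, but were called higher after upper quartile scaling, by 0.94 and 0.85 (limma adjusted p = 0.000987 and 0.00916).

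Reversed differences were few as deposited, but their number depended on the processing: 12 on the log2 scale, 27 after upper quartile scaling, 35 with array weights, 72 after quantile normalization and 89 by rank. Of the 12 genes, 4 were higher in rubella buds and lower in grandiflora buds than in leaf, and 8 the other way round. The species' buds differed by 1.43 to 4.33 on the log2 scale. Rubella buds did not overlap with leaf in 4 of the 12, where 50.3% of all tested genes showed no overlap. Coordinates are shared with another row in 2 of the 12. Of these 12, 9 were also reversed by rank, 5 after upper quartile scaling and 8 after quantile normalization, and 4 were reversed under all of these.

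Carubv10001325m (scaffold 6, 12256472 to 12258863) was 1 of those 4. It stood at 17.3, 17.5, 28 and 20.6 FPKM in Cr_bud 1 to 4, at 1.14, 0.41, 1.7 and 0.98 FPKM in Cg_bud 1 to 4 and at 0.7 to 17 FPKM (median 6.38) in leaf. Rubella buds lay above all leaves, and grandiflora buds lay at the low end of the leaf range. The difference from leaf was 1.78 (SE 0.564, limma adjusted p = 0.0111) with rubella and -1.64 (SE 0.567, limma adjusted p = 0.0178) with grandiflora buds; without Cg_bud 2 the latter was -1.47 (limma adjusted p = 0.0595).

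Carubv10027363m (scaffold 8, 9215557 to 9216373) was absent from rubella buds as listed, with 0.5 FPKM in Cr_bud 1, the value in place of 0, and 0 in Cr_bud 2 to 4. Grandiflora buds held 16.8, 33, 14.6 and 13.7 FPKM in Cg_bud 1 to 4. Leaf ranged from 0 to 11.8 FPKM (median 4) and was listed at 0 in 3 libraries, so leaf overlapped with rubella buds but not with grandiflora buds. The difference from leaf was -1.65 (SE 0.636, limma adjusted p = 0.0309) with rubella and 2.48 (SE 0.652, limma adjusted p = 0.00334) with grandiflora buds. Leaving out Cr_bud 2, 3 or 4 gave -1.60 for rubella (limma adjusted p = 0.0705 to 0.0707).

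The other named reversals likewise lost calls when single libraries were left out. Carubv10003324m (scaffold 6, 5665815 to 5666726) stood at 0.93, 99.8, 0.88 and 0.65 FPKM in Cr_bud 1 to 4, so Cr_bud 2 was at the level of the grandiflora buds (79.2 to 127 FPKM) and the other 3 were far below leaf (10.5 to 83.1 FPKM, median 25.9). Its difference from leaf was -2.39 with all 4 rubella buds (limma adjusted p = 0.0229), -3.84 without Cr_bud 2, and not called without any one of Cr_bud 1, 3 or 4 (limma adjusted p = 0.0889 to 0.0961). Carubv10015398m (scaffold 3, 5568954 to 5572061) stood at 46.6, 16.4, 24.3 and 14.6 FPKM in rubella buds and at 15.3, 0.78, 0.39 and 0.32 FPKM in Cg_bud 1 to 4, with leaf at 1.46 to 21.5 FPKM (median 7.83). Rubella buds overlapped with leaf, and so did Cg_bud 1. Its grandiflora difference of -1.53 (limma adjusted p = 0.0452) was not called without Cg_bud 2, 3 or 4 (limma adjusted p = 0.126 to 0.159), nor without any one of 7 of the leaf libraries.

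**Figure D5:**
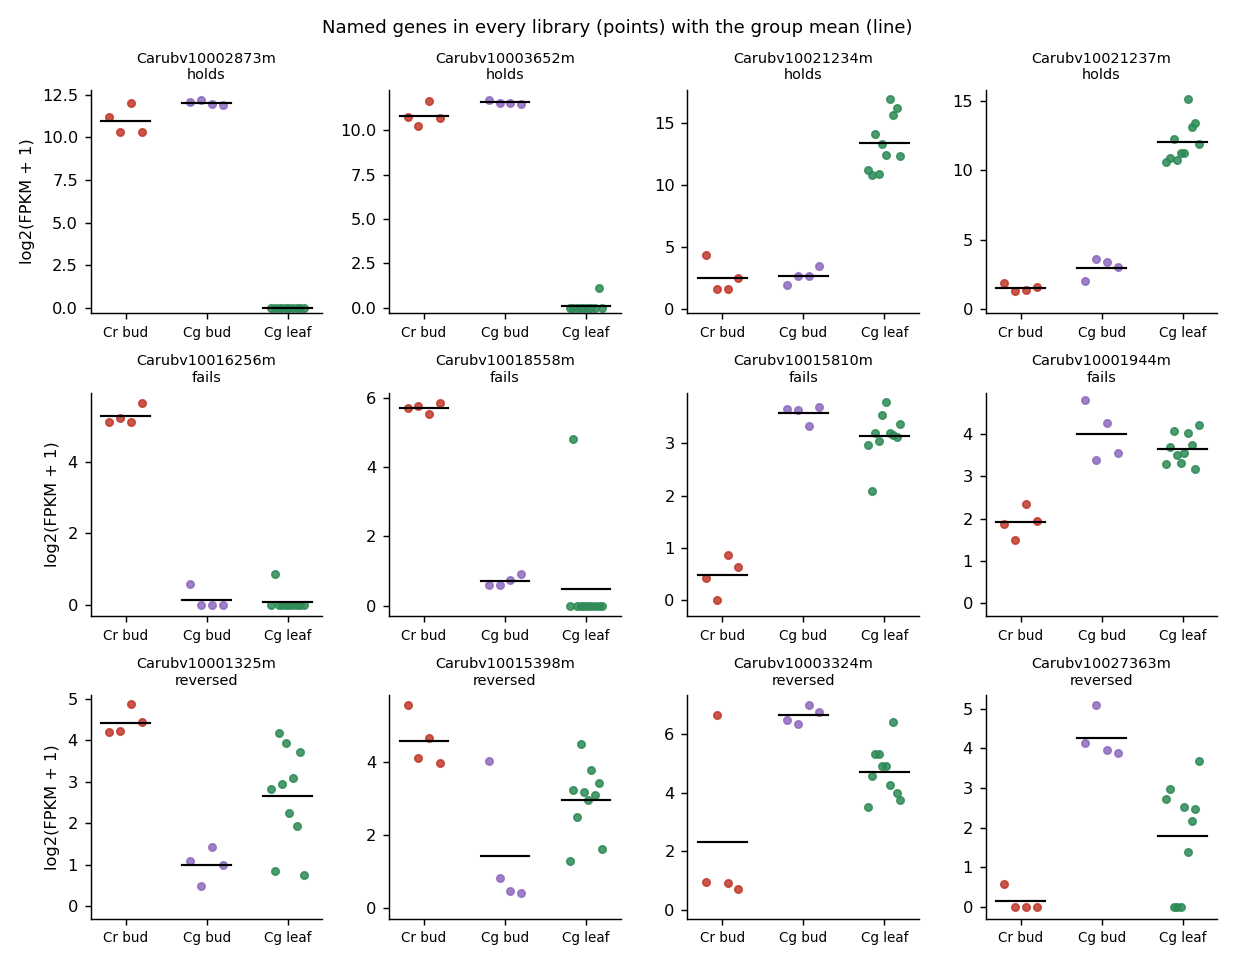
Level of the 12 named genes (vertical axis, log2(FPKM + 1), own scale per panel) in every library of the C. rubella buds (Cr bud, n = 4), C. grandiflora buds (Cg bud, n = 4) and C. grandiflora leaves (Cg leaf, n = 10); points are libraries and lines group means. Both bud groups lie together in the top row, grandiflora buds lie with leaf in the middle row, and the bud groups lie on opposite sides of the leaf mean in the bottom row.

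Where a difference held, its size could still depend on which species' buds entered. The leaves are those of C. grandiflora throughout, so the sizes differ only through the buds. No rubella leaf was used, so a changed bud-leaf contrast cannot be told apart from a species difference shared by both tissues. Of the 10709 genes that held, 8395 did not pass the test between the buds. The difference from leaf was smaller with rubella than with grandiflora buds in 1592 and larger in 722. Among genes higher in buds, 916 were less far above leaf in rubella and 499 further above. Among genes lower in buds, 676 were less far below leaf in rubella and 223 further below. By rank the corresponding totals were 1235 smaller and 628 larger, and in a single fit of all 18 libraries 731 and 189. Leaving out any 1 rubella bud gave 705 to 874 smaller and 378 to 491 larger, with the lowest of both without Cr_bud 2. The filter of 4 libraries then also removes genes expressed in the remaining rubella buds alone. With it asked in 3 libraries, the ranges were 1065 to 1262 smaller and 457 to 567 larger. Of the grandiflora buds, leaving out Cg_bud 2 gave 1136 and 438, and leaving out Cg_bud 4 gave 1167 and 456. The genes that held were chosen partly on the rubella buds that enter the test. Rubella buds also had a higher rank correlation with leaf (median rho 0.530) than grandiflora buds had (0.490). Those values come from the same libraries, and earlier results of these data were known, so the counts are not separate evidence.

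Calls were found at like rates on all large scaffolds. On the 8 main scaffolds, 36.3% to 39.8% of tested genes were higher and 31.4% to 34.3% lower in rubella buds, and 9.21% to 12.2% of the called differences failed in grandiflora. On the 60 small scaffolds together, 93 of 153 tested genes were called, and 19 of these calls (20.4%) failed. These scaffolds also held 7 of the 147 genes of the stricter set.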

How the data were processed

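The authors deposited gene expression as FPKM for 18 libraries, per the file headers, on the CR v1 JGI build; Bowtie, TopHat and Cufflinks are listed in the submitters' processing notes, with no version, and how bud and leaf columns were scaled is not given. The depth of the libraries is unknown, so no counting intervals are given. Columns were matched to libraries by title. Values were analysed as log2(FPKM + 1) with limma 3.58.1 (R 4.3.3; empirical Bayes, mean trend, Benjamini-Hochberg over all genes tested, threshold 0.05) in 3 fits on the same 17150 genes: C. rubella bud against leaf, C. grandiflora bud against leaf, and bud against bud. Percentile ranks within a library (ties averaged) were fitted without the trend. The limma fit of log2 values was tested on simulated data without a difference in scaling or form between bud and leaf. The rank fit and the classes of holding, failing and reversed genes were not tested in this way. Single values per library were compared by exact permutation (SciPy 1.17.1).

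Named genes were, per direction, the 2 with the largest difference among those that held (called also by rank, at least 5 FPKM in the higher group, no overlap, own coordinates), the 2 with the largest difference between species in the stricter set (same limits), and the 2 reversed genes with the largest smaller-of-both differences. Members, lists and tests were chosen with earlier results of these data known. Gene lists by product name could not be applied, since the table pairs no ID with a name. Of the rows tested, 2402 share coordinates with another row. Alternatives covered the pseudocount, filter, scaling, ranks, trend, weights, a single fit, the value 0.5, shared coordinates and each bud library; leaving out leaf libraries, a filter in 3 libraries where a rubella bud was left out, and place of origin as a block were added after the data were seen.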

Additional observations from a re-analysis of the deposited data

Results flagged for a closer look

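In 48 sets of libraries searched for a value far from the rest of its group, 14 were found. The nominal chance rate of about 1 in 20 does not apply to these 14, since many are values of genes picked for large differences. Some also stand alone among values of 0, or are 0.5 in place of 0. For whole libraries the flagged values were the share of the top 10 genes in Cr_bud 2 (3.39%, next 4.40%) and the mean rho of Cg_leaf 4 to the other leaves (0.900, next 0.923). For genes in rubella buds they were Carubv10021234m in Cr_bud 1 (19.9 FPKM, next 4.66), Carubv10003324m in Cr_bud 2 (99.8 FPKM, next 0.93) and Carubv10027363m in Cr_bud 1 (0.5 FPKM, the value in place of 0). In grandiflora buds they were Carubv10015398m in Cg_bud 1 (15.3 FPKM, next 0.78), Carubv10027363m in Cg_bud 2 (33 FPKM, next 16.8), Carubv10016256m in Cg_bud 1 (0.5 FPKM, in place of 0) and Carubv10015810m in Cg_bud 3 (9.11 FPKM, next 11.5). In leaf they were Carubv10003652m in Cg_leaf 9 (1.18 FPKM, others 0), Carubv10021237m in Cg_leaf 7 (36191 FPKM, next 11101), Carubv10003324m in Cg_leaf 8 (83.1 FPKM, next 39.2), and Carubv10016256m and Carubv10018558m in Cg_leaf 2 (0.823 and 27.2 FPKM, others 0).

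Rubella and grandiflora buds differed, by the limma test, in the 8 named genes that failed or were reversed, which were picked for it. With no rubella leaf, this cannot show that the bud-leaf contrast itself changed between species. The difference was 5.11 for Carubv10016256m, 5.02 for Carubv10018558m, -3.10 for Carubv10015810m, -2.08 for Carubv10001944m, 3.42 for Carubv10001325m, 3.15 for Carubv10015398m, -4.33 for Carubv10003324m and -4.12 for Carubv10027363m on the log2 scale. The adjusted p was highest for Carubv10003324m (limma adjusted p = 0.0373) and Carubv10015398m (limma adjusted p = 0.0253). The first was not called without any one of Cr_bud 1, 3 and 4 or of the 4 grandiflora buds, and by rank. The second was not called without any one of Cr_bud 1 and 3 or Cg_bud 2, 3 and 4.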

How the results depend on the processing

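Across the alternatives run, 447 counts stayed within 1.5 times the reported one and 50 did not; the cause was not tested unless given. The number of reversed genes was the least stable: 27 higher and 45 lower with quantile normalization, 36 and 53 by rank, 11 and 24 with array weights, 21 lower with upper quartile scaling and 5 lower with a filter of 5 FPKM. A single fit of all 18 libraries left 87 higher and 56 lower failing genes with a called species difference, and 67 and 21 genes in the stricter set. That set held 72 higher genes with a filter of 5 FPKM, 19 lower genes with a pseudocount of 5, and 91 lower genes with quantile normalization. A pseudocount of 5 left 2854 genes at least 2-fold higher. Asking 1 FPKM in place of 5 gave 412 genes listed at 0 in leaf and 88 near 0 in rubella buds, and a limit of 0.1 FPKM with 0.5 set to 0 gave 9 of the latter.

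With 1 library left out in turn, calls numbered 4410 to 6725 higher and 5062 to 5691 lower, and 5926 to 6013 higher where a rubella bud was left out and the filter asked in 3 libraries, since the filter of 4 then removes genes expressed in the 3 remaining rubella buds alone. Failing genes numbered 434 to 1039 higher and 323 to 737 lower, those with a called species difference 177 to 378 and 113 to 209, reversed genes 1 to 4 and 5 to 11, and the stricter set 67 to 120 and 30 to 47. At least 2-fold higher genes numbered 3270 to 4962. Where a rubella bud was left out, failing lower genes numbered 323 to 369 with the filter in 4 libraries and 340, 341 and up to 377 with it in 3, those with a called species difference 197, 205 and up to 235 higher with the filter in 3, and 114 lower without Cr_bud 2 and 118 lower without Cr_bud 4 and the filter in 3.

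Of the named values, 777 kept direction and side of the threshold, 45 became weaker and 4 stronger. The grandiflora difference of Carubv10016256m, not called in any setting, became -0.21 with quantile normalization, -3.36 percentile points by rank, and -0.0866 with 0.5 set to 0 or without Cg_bud 1, the lowest of -0.0866 to 0.146 with 1 library left out; that of Carubv10018558m became -0.10 with a pseudocount of 5, -0.32 with quantile normalization and -6.32 percentile points by rank. No paired analysis was possible because the labels give no replicate numbers and only the Pili and Corfu origins join a grandiflora bud to a leaf library. With place of origin as a block, added after the data were seen, 652 higher and 472 lower differences failed, 14 were reversed and 151 genes met the stricter limits, and no named call changed. The depth of the libraries is unknown and limits what a value of 0 can show.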

Other observations

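With the same leaf libraries, 1147 genes were called between grandiflora buds and leaf and not between rubella buds and leaf, beside the 1240 called with rubella buds and not with grandiflora buds. Of the 1147, 459 also passed the limma test between the buds of the species, beside 505 of the 1240. Both sets were chosen on bud values that enter that test, which called 11.6% of all tested genes higher and 10.4% lower in rubella buds. The counts are not alike in kind: the filter used rubella buds and leaves, so it kept genes expressed in rubella buds alone and removed those expressed in grandiflora buds alone.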
